A study of Homo sapiens with 6 samples.

Results

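The cellular response to low oxygen runs through the hypoxia-inducible factors (HIF), and the mRNA of 10 genes of this pathway was examined in HK-2 cells treated with TEPP-46. The genes were *HIF1A*, *EPAS1* and *ARNT*, which encode HIF subunits, *EGLN1*, *EGLN3* and *VHL*, which encode the oxygen sensors and the protein that takes HIF to degradation, and *VEGFA*, *CA9*, *ADM* and *NDRG1*, which are typical HIF targets outside glycolysis. They were chosen by symbol, each symbol matched 1 Ensembl identifier, and all 10 were found among the 29483 genes of the FPKM table. HK-2 is an established human cell line made from the proximal tubule epithelium of the kidney. Both groups were kept in high glucose (HG) medium at 25 mM for 7 days. The 3 control replicates received no compound, and the 3 case replicates were then given TEPP-46, a small molecule that activates the glycolytic enzyme PKM2, at 10 μM for 1 day. No samples in normal glucose or in low oxygen were analysed here, so the comparison below is between HG with and without TEPP-46. The study calls its replicates independent, the labels do not say whether they came from separate cultures, and the p-values describe the spread between these 6 libraries.

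An HIF dimer joins an alpha subunit (HIF-1α from *HIF1A*, HIF-2α from *EPAS1*) to the constitutive beta subunit from *ARNT*. While oxygen is present, prolyl hydroxylases of the EGLN family modify the alpha subunit, the VHL ubiquitin ligase binds the modified protein, and the proteasome removes it, so that HIF activity is set mainly at the level of protein. When hydroxylation slows, the dimer binds hypoxia response elements and raises genes for new vessels, pH control, mitophagy and glycolysis, together with *EGLN1* and *EGLN3* themselves, and in the proximal tubule the alpha subunit usually found is HIF-1α. Nuclear PKM2 has been described as a partner of HIF-1α, which is why these genes are of interest beside a PKM2 activator.

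The expression values are FPKM, the fragments on a gene per kilobase of its length and per fixed number of fragments sequenced in the library. Their depth, recovered from the steps between low values, was 17378710 to 18634891 reads per control library and 15363254 to 16711934 reads per case library. Intervals and limits from such reads cover counting error only. Across all tested genes, case replicate 2 lay closest to the control group. Its median absolute log2 difference from the control libraries was 0.193, against 0.306 for case replicate 1 and 0.277 for case replicate 3, while each control library differed from the others by 0.085 to 0.0951. The results below are therefore also given without this library where that changes a call of a pathway gene or of a DE gene among the targets. Other single genes are given from all libraries together.

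The labelled cell type was compared with marker genes. All 5 epithelial markers (*KRT8*, *KRT18*, *KRT19*, *EPCAM* and *CDH1*) were above 1 FPKM in every library, and the most abundant, *KRT19*, ranged from 299.8 to 384 FPKM. Of 16 proximal tubule markers, 12 were in the table, and 11 of these never exceeded 0.5 FPKM in any library. Most defining markers of the proximal tubule were thus at or near 0 in both groups. Markers of immune, endothelial, stromal and other renal cells were low as well, with 9 of 15 in the table, none above 0.5 FPKM, and a summed level between 0.251 and 0.561 FPKM per library. The epithelial cadherin *CDH1* was downregulated in the case group, from 3.42 ± 0.0811 to 2.05 ± 0.248 FPKM (SD, n = 3 each; log2 fold change -0.64, adjusted p = 0.0156 by limma), and the part of this change in the values below was not tested. The other 4 epithelial markers were not DE genes, although *KRT8* was lower in every case library (344 ± 10.8 against 271 ± 28.5 FPKM, log2 fold change -0.27, adjusted p = 0.125), and the median log2 fold change of the 5 was 0.02. In bulk RNA, fewer cells expressing a gene and less of its RNA per cell cannot be told apart.

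HIF dimers recognise a short core, so the sequence before the start site is shown for 3 genes: *CA9* and *EGLN1*, members with a match beside the start site, and *BNIP3*, the upregulated target described below with the most matches. The core was searched as ACGTG or GCGTG on both strands (CACGT or CACGC when read on the strand shown), matches that overlapped by any base were counted as 1, and the window ran from 250 bases before to 50 bases after the start site in RefSeq on GRCh38.p14. Capitals mark the matches, and the 250 bases before the start are written 5′ to 3′ on the strand of the gene, from chr9:35673678-35673927 (plus strand), chr1:231422288-231422537 (minus strand) and chr10:131981924-131982173 (minus strand).
CA9: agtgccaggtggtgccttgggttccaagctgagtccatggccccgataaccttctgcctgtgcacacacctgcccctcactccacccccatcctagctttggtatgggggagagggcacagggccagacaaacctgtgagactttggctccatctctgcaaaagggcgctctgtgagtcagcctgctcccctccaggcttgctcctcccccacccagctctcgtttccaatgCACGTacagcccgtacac
EGLN1: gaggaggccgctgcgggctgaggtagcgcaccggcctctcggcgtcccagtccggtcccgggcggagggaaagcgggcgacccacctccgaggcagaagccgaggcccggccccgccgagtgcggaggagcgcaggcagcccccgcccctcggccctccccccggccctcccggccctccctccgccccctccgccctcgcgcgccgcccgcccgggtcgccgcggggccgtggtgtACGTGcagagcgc
BNIP3: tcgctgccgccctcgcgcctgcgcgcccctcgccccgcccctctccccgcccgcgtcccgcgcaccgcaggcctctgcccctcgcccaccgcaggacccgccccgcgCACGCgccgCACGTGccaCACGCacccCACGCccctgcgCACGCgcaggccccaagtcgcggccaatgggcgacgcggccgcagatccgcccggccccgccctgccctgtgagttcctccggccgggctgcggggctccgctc
The single match of *CA9* began 18 bases and that of *EGLN1* 13 bases before the start (positions -18 and -13), while *BNIP3* held 5 matches between -143 and -104. Windows were given for 7 of the 10 genes, and for each gene only the first window listed was read. Of these windows, 5 held a match, with *HIF1A* at -204, *EPAS1* at -117 and *ADM* at -101, whereas those of *ARNT* and *EGLN3* held none. The windows of *EPAS1* and *EGLN3* lay inside the gene positions given below, and other start sites are not described here. A core this short is common, since 17012 of all 35116 windows (48.4%) held it. A match is a description of the letters and not a binding site.

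The 10 genes differed widely in level. *HIF1A* was the most abundant in the control group at 64.9 ± 1.16 FPKM (SD, n = 3), followed by *VEGFA* at 18.7 ± 1.01 and *EGLN1* at 15.0 ± 0.975 FPKM. *EPAS1*, *VHL* and *ARNT* came next at 12.1 ± 0.889, 11.9 ± 0.704 and 11.8 ± 0.524 FPKM, and the ranges of neighbours among these 3 genes overlapped, so that no order between them could be read. *NDRG1* followed at 7.36 ± 0.368 and *EGLN3* at 1.08 ± 0.0323 FPKM, and *ADM* and *CA9* were below 0.5 FPKM on average. The ranges of all other neighbours in this order did not overlap.

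**Figure D1:**
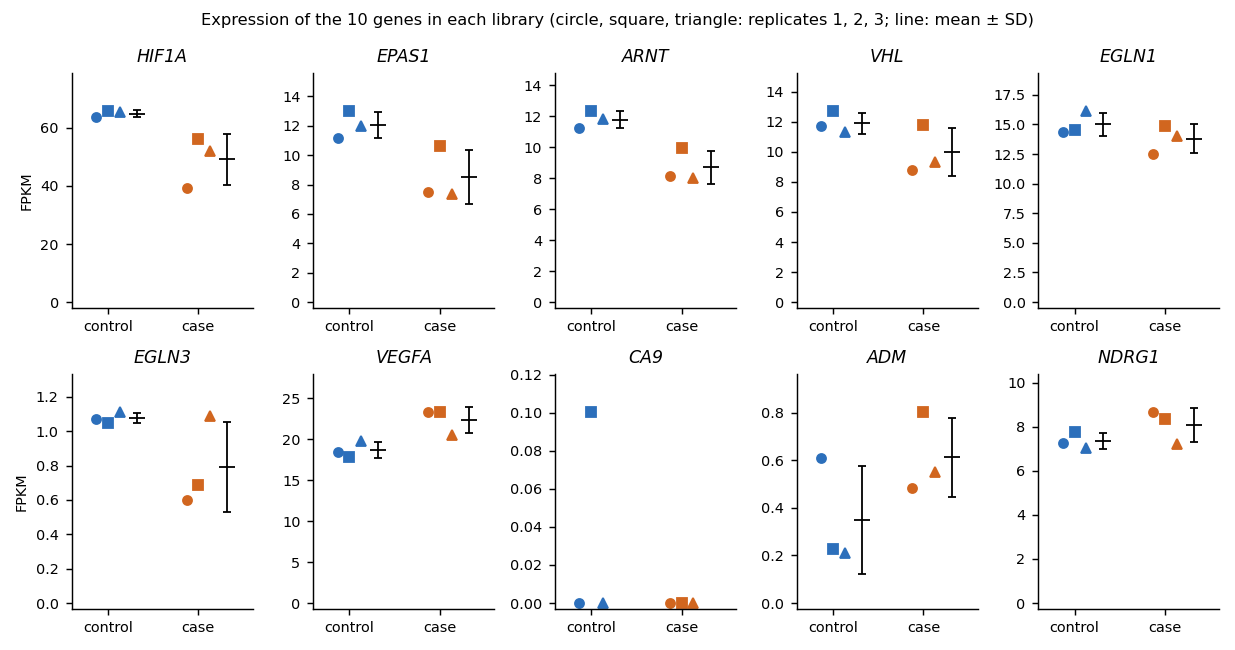
FPKM of the 10 genes in each library, with control replicates in blue and case replicates in orange (circle, square and triangle for replicates 1, 2 and 3) and the mean with its SD beside them, except for *CA9*, which was at 0 in 5 libraries. *HIF1A*, *EPAS1* and *ARNT* sit lower in every case library than in any control library, *VEGFA* sits higher, and the scale differs between panels.

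The case group was set against the control group by limma over all 13599 genes with a mean of at least 0.5 FPKM, and P-values were adjusted over these genes. A gene was called a DE gene at an adjusted p of 0.05 or less. Of all tested genes, 7.34% were upregulated and 5.84% downregulated, 13.2% in all. Of the 10 pathway genes, 8 were tested, 1 was upregulated (*VEGFA*), 1 was downregulated (*ARNT*), and 6 were not DE genes. Their median log2 fold change was -0.26, against -0.00 over all tested genes. Without regard to the test, 3 of the 8 were lower and 1 was higher in every case library than in every control library after scaling, and such a lack of overlap was found in 39.9% of all tested genes (19.5% higher, 20.4% lower). An exact permutation test of 3 against 3 libraries cannot give a p below 0.1, so no such test was used for single genes.

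*HIF1A* (ENSG00000100644, GRCh38 chr14:61695513-61748259) encodes the oxygen-regulated subunit HIF-1α. Its FPKM was 63.6, 65.7 and 65.5 in control replicates 1, 2 and 3, and 39.4, 56.2 and 52.2 in case replicates 1, 2 and 3. The control libraries lay close together, all case libraries were lower, and case replicate 1 was lower than replicates 2 and 3. The mean was 64.9 ± 1.16 FPKM in the control libraries and 49.3 ± 8.77 in the case libraries (SD, n = 3 each). The log2 fold change was -0.34 with a standard error (SE) of 0.11, which did not pass the threshold (95% confidence interval -0.59 to -0.08, adjusted p = 0.0812 by limma). The gene was deeply covered, with 3390 to 6104 reads per library. By voom on the recovered whole reads, which called 21.0% of all genes, the adjusted p was 0.0390, and without case replicate 2, where limma called 25.7%, it was 0.0339 at a log2 fold change of -0.42. Without case replicate 1, the lowest library, the log2 fold change was -0.21 (adjusted p = 0.0541 by limma).

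*EPAS1* (ENSG00000116016, chr2:46293667-46386697) encodes the other alpha subunit, HIF-2α. It had 11.2, 12.98 and 12.002 FPKM in the control libraries and 7.50, 10.6 and 7.39 FPKM in the case libraries. The groups did not overlap, and case replicate 2 was the nearest to the control group. Its log2 fold change was -0.44 (SE 0.13, 95% confidence interval -0.75 to -0.13, adjusted p = 0.0635 by limma), short of the threshold. Among other settings, it passed by voom (adjusted p = 0.0216) and without case replicate 2, where the log2 fold change was -0.59 (adjusted p = 0.00939 by limma), and it did not pass when any other library was left out (log2 fold change -0.49 to -0.35, adjusted p = 0.115 to 0.204). The level of *EPAS1* relative to *HIF1A* in the same library was 0.186 ± 0.0109 in the control libraries and 0.174 ± 0.0278 in the case libraries (SD, n = 3 each), a difference within the spread.

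*ARNT* (ENSG00000143437, chr1:150809713-150876708) encodes HIF-1β, the partner of both alpha subunits. Its FPKM was 11.2, 12.3 and 11.8 in the control libraries and 8.14, 9.93 and 8.001 in the case libraries. All case libraries were again lower than all control libraries. *ARNT* was a downregulated DE gene, with a log2 fold change of -0.36 (SE 0.10, 95% confidence interval -0.58 to -0.14, adjusted p = 0.0450 by limma), and its P-value ranked 1584 among all tested genes. The call was near the threshold. It was lost when any library other than case replicate 2 was left out (log2 fold change -0.39 to -0.30). Those fits called 0.507% to 16.8% of all tested genes. Without case replicate 2, where limma called 25.7%, the log2 fold change was -0.44 (adjusted p = 0.0137). The call held in 9 of 14 other settings, not counting those that left out a library. It was lost, among others, with no filter on low values (adjusted p = 0.0867 by limma) and without the intensity trend (0.0773). The ratio of *ARNT* to *HIF1A* was 0.181 ± 0.00516 in the control libraries and 0.179 ± 0.0267 in the case libraries.

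The paralog *ARNT2* (ENSG00000172379), a beta subunit best known from neurons, was expressed at a lower level and was also downregulated. It had 3.24, 3.36 and 3.10 FPKM in the control libraries and 1.94, 2.54 and 2.06 FPKM in the case libraries, without overlap. Its log2 fold change was -0.48 (SE 0.12, adjusted p = 0.0370 by limma). The call was lost without any one of the control libraries and without case replicate 3 (adjusted p = 0.106 to 0.1498), fits that called 0.507% to 1.41% of all tested genes. It was also lost after the correction for gene length described below (log2 fold change -0.33, adjusted p = 0.0633). *HIF3A*, the third alpha subunit gene, was between 0 and 0.0156 FPKM and was not tested. All 4 tested subunit genes thus lay lower in every case library than in every control library, beside 20.4% of all tested genes, and 2 were downregulated DE genes, beside 5.84%. Their median log2 fold change was -0.40. The call of *ARNT* was lost with the length correction as well (adjusted p = 0.0727 by limma), and 4 genes are too few to set against such shares.

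**Figure D2:**
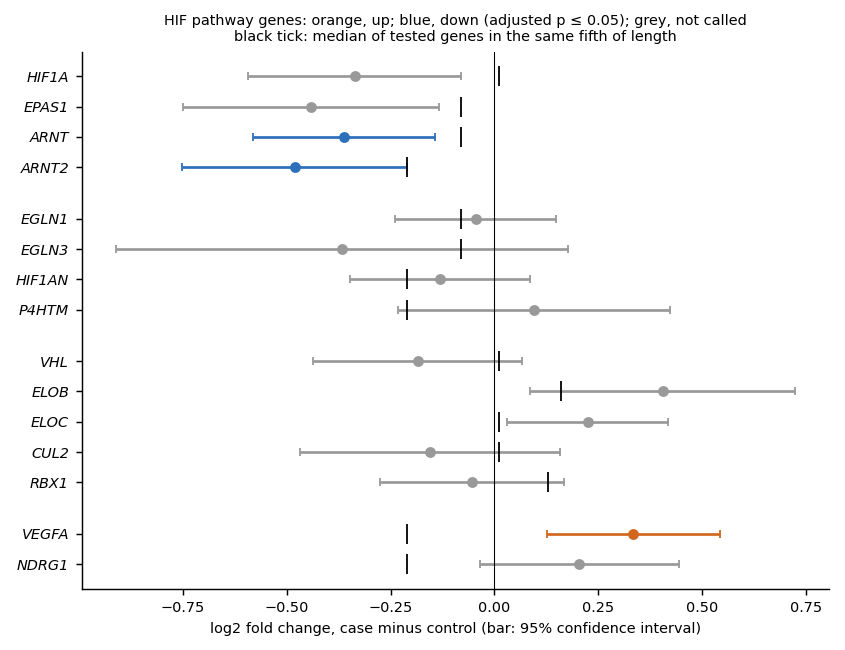
Log2 fold change (case against control, with its 95% confidence interval) of HIF subunits, hydroxylases, components of the VHL ligase, and the targets *VEGFA* and *NDRG1*. DE genes are coloured (*ARNT* and *ARNT2* down in blue, *VEGFA* up in orange), and the black tick gives the median of all tested genes of similar length, which is -0.21 for *VEGFA*.

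The hydroxylases that sense oxygen did not pass the threshold. *EGLN1* (ENSG00000135766, chr1:231363751-231422287) encodes PHD2, the main HIF prolyl hydroxylase in most cells, and is itself a HIF target. It had 14.4, 14.5 and 16.1 FPKM in the control libraries and 12.5, 14.9 and 14.0 FPKM in the case libraries, with overlapping ranges. The log2 fold change was -0.05 (SE 0.08, 95% confidence interval -0.24 to 0.15, adjusted p = 0.744 by limma). That interval holds for the analysis reported only. It was -0.11 to 0.27 with a correction for length and GC content, and -0.47 to -0.01 in TPM, where the median of all tested genes was -0.194. In GENCODE 44, 55.8% of the exonic bases of *EGLN1* are shared with a second gene on the same strand, which has no row in the FPKM table, and whether the counting used that gene is not given in the sources used here.

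*EGLN3* (ENSG00000129521, chr14:33924227-34462774) encodes PHD3, the family member that hypoxia induces most strongly in many cell types. It was low, at 1.07, 1.05 and 1.11 FPKM in the control libraries and 0.602, 0.686 and 1.09 FPKM in the case libraries. Case replicates 1 and 2 were below all control libraries, and case replicate 3 was within their range. The log2 fold change of -0.37 (SE 0.24, 95% confidence interval -0.91 to 0.18, adjusted p = 0.310 by limma) rested on 74 to 147 reads per library and did not pass the threshold. It was -0.59 without case replicate 3, -0.23 without case replicate 1 and -0.19 with a pseudocount of 1.

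Of the other hydroxylases, *HIF1AN*, which encodes the asparaginyl hydroxylase FIH that blocks binding of HIF to its coactivators, had 6.77 ± 0.373 FPKM in the control libraries and 5.87 ± 0.594 in the case libraries (log2 fold change -0.13, adjusted p = 0.364 by limma). *P4HTM*, a transmembrane prolyl hydroxylase, had 3.86 ± 0.238 and 3.94 ± 0.597 FPKM (log2 fold change 0.09, adjusted p = 0.677). *EGLN2*, which encodes PHD1, was between 0.267 and 0.587 FPKM and was not tested, and it shares 30.6% of its exonic bases with a readthrough gene. None of the 4 tested hydroxylase genes was a DE gene, beside 13.2% of all tested genes, and none was separated between the groups, beside 39.9%. These 4 genes are too few to set against such shares.

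*VHL* (ENSG00000134086, chr3:10141778-10153667) encodes the subunit of the ubiquitin ligase that recognises hydroxylated HIF-α. It had 11.7, 12.7 and 11.3 FPKM in the control libraries and 8.79, 11.8 and 9.35 FPKM in the case libraries. Case replicates 1 and 3 were below the control group, and case replicate 2 was within its range. For *VHL* the log2 fold change was -0.18 (SE 0.11, 95% confidence interval -0.44 to 0.07, adjusted p = 0.273 by limma). Without case replicate 2 it was -0.29 and passed the threshold (adjusted p = 0.0464). It did not pass when any other library was left out, with -0.12 without case replicate 1 (adjusted p = 0.453). An annotated long noncoding RNA on the opposite strand covers 23.5% of the exonic bases of *VHL*. It has no row in the FPKM table, and without strand reads of the gene and of this RNA cannot be told apart.

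The other 4 subunits of the ligase were not DE genes in the analysis reported. The adaptor *ELOB* had 138 ± 12.7 FPKM in the control libraries and 174 ± 25.8 in the case libraries, higher in each case library than in any control library after scaling (log2 fold change 0.41, adjusted p = 0.0880 by limma). *ELOB* passed the threshold by voom (adjusted p = 0.0355) and without case replicate 2 (log2 fold change 0.54, adjusted p = 0.0168), but not without any other library, with 0.28 without case replicate 1 (adjusted p = 0.141). After quantile normalization it was at 0.18 (adjusted p = 0.213 by limma). With the correction for gene length described below, *ELOB* was at 0.26 (adjusted p = 0.1203). The partner of *ELOB*, *ELOC*, was separated in the same direction in the analysis reported (log2 fold change 0.22, adjusted p = 0.110). The scaffold *CUL2* (log2 fold change -0.16, adjusted p = 0.459) and the RING subunit *RBX1* (log2 fold change -0.05, adjusted p = 0.731) overlapped between the groups. Of 11 listed coregulators, among them the coactivator genes *EP300* and *CREBBP*, 10 were tested and none was a DE gene by limma, while 1 was higher and 1 was lower at an unadjusted p under 0.05, as were 2288 and 2207 of all 13599 tested genes. After scaling, 1 of the 10 coregulators was higher and 3 were lower in every case library than in any control library, beside 19.5% and 20.4% of all tested genes. *EP300* came nearest, with 4.28 ± 0.239 FPKM in the control libraries and 2.64 ± 0.992 in the case libraries (log2 fold change -0.66, adjusted p = 0.0692). The antisense RNAs *HIF1A-AS1* (log2 fold change -0.45, adjusted p = 0.589) and *HIF1A-AS3* (0.31, adjusted p = 0.516) were low and varied within the groups, and they overlap 2.58% and 5.80% of the exonic bases of *HIF1A*.

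Among the targets, *VEGFA* (ENSG00000112715, chr6:43770184-43786487), which encodes the vascular endothelial growth factor that keeps peritubular and glomerular capillaries in the kidney, was upregulated. It had 18.4, 17.9 and 19.8 FPKM in the control libraries and 23.3, 23.3 and 20.5 FPKM in the case libraries. All case libraries were above all control libraries, with case replicate 3 only just above control replicate 3. The mean was 18.7 ± 1.01 FPKM in the control libraries and 22.4 ± 1.63 in the case libraries (SD, n = 3 each). After scaling, the fold change was 1.26, a log2 fold change of 0.33 (SE 0.09, 95% confidence interval 0.13 to 0.54, adjusted p = 0.0480 by limma). This call too was near the threshold, and it was lost when any 1 library was left out (adjusted p = 0.0534 to 0.188). The fits with a library left out called 0.507% to 25.7% of all tested genes. Without the scaling between libraries the log2 fold change was 0.26 (adjusted p = 0.0800). By voom on whole reads, of which *VEGFA* had 4546 to 5625 per library, the adjusted p was 0.0213.

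*NDRG1* (ENSG00000104419, chr8:133237175-133302022), a stress-responsive gene often used as a marker of hypoxia, had 7.28, 7.76 and 7.04 FPKM in the control libraries and 8.66, 8.35 and 7.20 FPKM in the case libraries. Case replicates 1 and 2 were above the control group and case replicate 3 was within its range. Its log2 fold change of 0.20 (SE 0.10, 95% confidence interval -0.04 to 0.44) did not pass the threshold (adjusted p = 0.209 by limma). With case replicate 1 left out it was 0.13, and with case replicate 3 left out 0.29.

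*ADM* and *CA9* were too low to test. *ADM* (ENSG00000148926, chr11:10305073-10307397), which encodes the vasodilator peptide adrenomedullin, had 0.612, 0.226 and 0.212 FPKM in the control libraries and 0.484, 0.802 and 0.551 FPKM in the case libraries, from 31, 11 and 10 reads and 22, 35 and 23 reads. Control replicate 1 lay among the case libraries. With no filter on low values, the log2 fold change was 0.81 (adjusted p = 0.340 by limma). *CA9* (ENSG00000107159, chr9:35673928-35681159), which encodes the carbonic anhydrase induced in hypoxic and *VHL*-deficient cells, was listed at 0 in all libraries except control replicate 2, where it had 0.1002 FPKM. At its exonic length of 1598 bases, a count of 0 allows up to 0.101 to 0.122 FPKM in the individual libraries (3 reads). This limit applies to the libraries at 0 and not to control replicate 2. It is approximate, because the length behind the FPKM of *CA9* was not recovered. With 1598 bases, control replicate 2 would have 2.87 reads, which is not a whole number. The gene *ARHGEF39* on the opposite strand overlaps 35.7% of its exonic bases.

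Levels of *VEGFA* and *EGLN1* were also set against *HIF1A* in the same library, as a description without a test. The ratio of *VEGFA* to *HIF1A* was 0.289, 0.272 and 0.303 in the control libraries and 0.592, 0.415 and 0.393 in the case libraries. All case libraries were higher, and case replicate 1, which had the least *HIF1A*, had the highest ratio. The ratio of *EGLN1* to *HIF1A* was 0.231 ± 0.0135 in the control libraries and 0.284 ± 0.0303 in the case libraries, with the lowest case library (0.265) above the highest control library (0.246).

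The wider set of hypoxia targets outside glycolysis held 48 genes, including *VEGFA*, *CA9*, *ADM*, *NDRG1*, *EGLN1* and *EGLN3*. Of these, 40 were tested, 8 were upregulated DE genes beside 7.34% of all tested genes, and 1 was downregulated beside 5.84%. The median log2 fold change of the 40 was 0.07, and 23 were above and 17 below 0. The set was mixed: 14 genes were higher and 3 lower in every case library, beside 19.5% and 20.4% of all tested genes, and 31 were not DE genes. These targets were listed with earlier results of the same libraries known, so the counts describe the list and were given no test.

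The upregulated targets other than *VEGFA* were *ANGPTL4*, *IGFBP3*, *STC2*, *P4HA1*, *BNIP3*, *VLDLR* and *EDN1*. *ANGPTL4* (ENSG00000167772), which encodes an inhibitor of lipoprotein lipase, rose the most, from 4.11, 3.48 and 3.73 FPKM in the control group to 8.75, 6.58 and 8.47 FPKM in the case group (log2 fold change 1.12, SE 0.14, adjusted p = 0.00848 by limma). *IGFBP3* (ENSG00000146674), which encodes a carrier of insulin-like growth factors, had 2.44, 2.21 and 2.19 FPKM in the control libraries and 4.16, 4.40 and 4.30 FPKM in the case libraries. In *IGFBP3* the spread within each group was small beside the step between them (log2 fold change 0.96, adjusted p = 0.00430). *STC2* (ENSG00000113739), which encodes the secreted glycoprotein stanniocalcin 2, had 29.1, 29.1 and 28.0 FPKM in the control libraries and 43.9, 50.8 and 43.3 FPKM in the case libraries (log2 fold change 0.75, adjusted p = 0.00430). Here case replicate 2 was the highest and not the nearest to the control group.

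The next upregulated targets by size of the adjusted p were *P4HA1* and *BNIP3*. *P4HA1* (ENSG00000122884), the catalytic subunit of collagen prolyl hydroxylase, rose from 12.5 ± 0.441 to 17.6 ± 1.39 FPKM (SD, n = 3 each; log2 fold change 0.56, adjusted p = 0.0124 by limma). *BNIP3* (ENSG00000176171), a receptor for mitophagy whose promoter is shown above, rose from 29.5 ± 0.648 to 37.4 ± 1.55 FPKM (log2 fold change 0.42, adjusted p = 0.0201). Both were separated between the groups. *VLDLR*, a lipoprotein receptor gene, rose from 3.27 ± 0.0391 to 4.37 ± 0.677 FPKM (log2 fold change 0.47, adjusted p = 0.0366), and *EDN1*, which encodes the vasoconstrictor endothelin 1, from 3.40 ± 0.365 to 4.60 ± 0.686 FPKM (log2 fold change 0.50, adjusted p = 0.0497). *CCND1*, which encodes the cell cycle regulator cyclin D1, was the downregulated gene of the list, from 44.5 ± 0.960 to 31.0 ± 3.48 FPKM (log2 fold change -0.45, adjusted p = 0.0193). The *EDN1* call was the nearest to the threshold of these. *VLDLR* was not called without scaling (adjusted p = 0.0791), with no filter on low values (0.0858) or without the intensity trend (0.0593). The call of *EDN1* held in 4 of 14 other settings, not counting those that left out a library, and was lost, among others, with a pseudocount of 1 (adjusted p = 0.05203) or 0.01 (adjusted p = 0.0506), without scaling (0.0764) and with the length correction (0.0954).

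**Figure D3:**
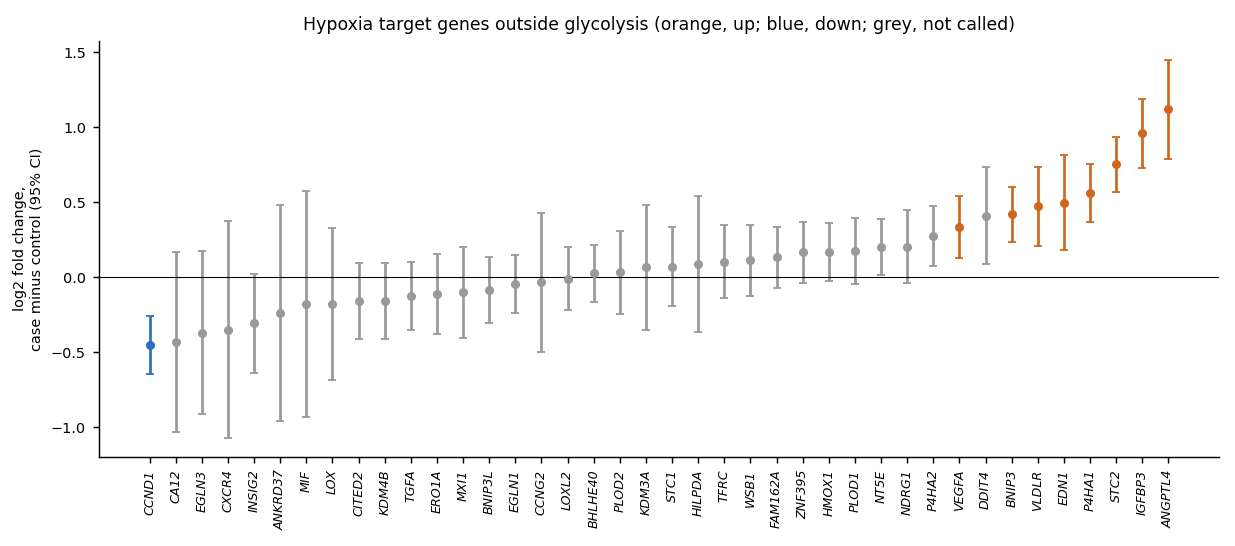
Log2 fold change (case against control, with its 95% confidence interval) of the 40 tested hypoxia targets outside glycolysis, in order of size. The 8 upregulated DE genes are orange, from *VEGFA* at 0.33 to *ANGPTL4* at 1.12, *CCND1* at -0.45 is blue, and the grey genes were not DE genes, among them *DDIT4* at 0.41, which lies between *VEGFA* and *BNIP3*.

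The calls differed in how far they depended on single libraries. *STC2* and *IGFBP3* were DE genes whichever of the 6 libraries was left out, *ANGPTL4* in 5 of 6 cases and *P4HA1* in 3 of 6. *BNIP3*, *VLDLR* and *CCND1* were called in 2 of 6 cases (with case replicate 1 or 2 left out), and *EDN1* in 1. Without case replicate 2 the number of upregulated targets was 7. Without control replicates 1, 2 and 3 it was 3, 2 and 3, and without case replicate 3 it was 4. Among all tested genes, 13.4% were upregulated without case replicate 2, 0.558%, 0.404% and 0.5% without control replicates 1, 2 and 3, and 0.89% without case replicate 3. A promoter window was given for 7 of the 9 DE targets, and all 7 held a match to the HIF core, as did 33 of the 38 targets with a window (86.8%), beside 48.4% of all windows. The genes were listed as hypoxia targets, and the windows were not matched for GC content. These shares therefore describe the list and were not tested.

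Glycolytic targets were mixed. Of 21 listed genes, 19 were tested, 1 (5.26%) was upregulated beside 7.34% of all tested genes and 1 (5.26%) downregulated beside 5.84%, and the median log2 fold change was 0.01. *LDHA*, which encodes the lactate dehydrogenase subunit that makes lactate from pyruvate, rose from 169.7 ± 4.04 to 204 ± 9.52 FPKM (log2 fold change 0.34, adjusted p = 0.0227 by limma). *PFKFB4*, which encodes an enzyme that sets the level of fructose 2,6-bisphosphate, fell from 2.49 ± 0.225 to 1.61 ± 0.0643 FPKM (log2 fold change -0.52, adjusted p = 0.0309). Both calls were lost when any control library or case replicate 3 was left out (adjusted p = 0.0777 to 0.1101 for *LDHA* and 0.0931 to 0.128 for *PFKFB4*). Those fits called 0.507% to 1.41% of all tested genes. Both were also lost with no filter on low values (0.0646 and 0.0731). The call of *LDHA* was also lost without the intensity trend (adjusted p = 0.0552) and after quantile normalization, where the log2 fold change was 0.12 (adjusted p = 0.3197). The gene of the enzyme that TEPP-46 acts on, *PKM*, had 914 ± 20.7 FPKM in the control libraries and 846 ± 76.7 in the case libraries (log2 fold change -0.04, 95% confidence interval -0.27 to 0.20, adjusted p = 0.821), so a change of its mRNA was not detected.

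Log2 fold changes moved with the length of the genes in this comparison. When the tested genes were split by length into 5 classes of equal size, the median log2 fold change went from 0.158 in the shortest class to -0.21 in the longest. The trend was present in all case libraries, with 0.25 to -0.32 in case replicate 1, 0.052 to -0.08 in case replicate 2, and 0.222 to -0.219 in case replicate 3. *VEGFA*, at 14431 bases, was in the longest class, where 1.99% of the genes were upregulated and 13.7% downregulated. *NDRG1* was in the same class, *ARNT*, *EPAS1*, *EGLN1* and *EGLN3* were in the next one with a median of -0.079, and *HIF1A* and *VHL* were in the middle one with a median of 0.011. The value of *HIF1A* was thus below the median of genes of its length, and that of *VEGFA* was above it. When each library was corrected for length, a setting added later, once the trend was known, 10.9% of all genes were called. The log2 fold change was 0.65 for *VEGFA* (adjusted p = 0.0241 by limma), -0.27 for *ARNT* (0.0727), -0.32 for *EPAS1* (0.102) and -0.31 for *HIF1A* (0.0806). *VEGFA* kept its call, and *ARNT* was no longer a DE gene. Medians also moved with GC content, but not in the same direction in each case library. From the lowest to the highest of 5 classes of GC content they went from -0.285 to 0.163 in case replicate 1. They went from 0.033 to -0.128 in case replicate 2 and from -0.002 to -0.074 in case replicate 3. With a correction for length and GC content together, *HIF1A* (-0.29, adjusted p = 0.00964), *ARNT* (-0.31, 0.0211), *VEGFA* (0.64, 0.00602) and *NDRG1* (0.41, 0.0132) all passed the threshold, where 20.7% of all genes did. *EPAS1* (-0.34, adjusted p = 0.0772 by limma), *VHL* (-0.25, 0.0893), *EGLN1* (0.08, 0.498) and *EGLN3* (-0.28, 0.410) did not.

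**Figure D4:**
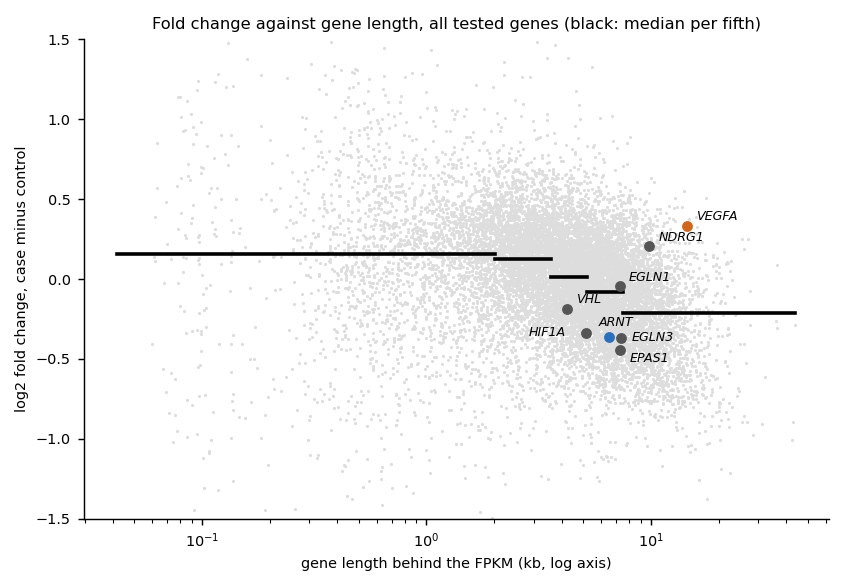
Log2 fold change of all tested genes (grey, case against control) against the gene length behind the FPKM in kb on a log axis, with the median of each length class as a black bar and the 8 tested pathway genes as large points. The median falls from 0.158 to -0.21, *VEGFA* (orange) lies above the bar of the longest genes, *ARNT* (blue) lies below its bar, and 142 genes with a change beyond the axis are not drawn.

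Scaling moved these results as well. In TPM, which fixes the sum over genes in each library, the median of all tested genes was -0.194 on the log2 scale, and changes there are read relative to it. *VEGFA* had a log2 fold change of 0.14 in TPM (adjusted p = 0.293 by limma), which is 0.33 above that median, and *NDRG1* had 0.01, which is 0.20 above it. The calls of *BNIP3*, *VLDLR*, *EDN1* and *LDHA* were lost in TPM as well, where they lay 0.41, 0.47, 0.50 and 0.33 above the median. *HIF1A* (-0.54, adjusted p = 0.0307), *EPAS1* (-0.64, 0.0304) and *ARNT* (-0.56, 0.0192) passed the threshold in TPM, where 20.4% of all genes did, 2387 downregulated and 383 upregulated. Relative to the median these 3 genes were at -0.34, -0.45 and -0.37, close to their values in the analysis reported. The direction of *HIF1A*, *EPAS1*, *ARNT*, *VHL*, *EGLN3*, *VEGFA* and *NDRG1* was the same in every setting that gave a value, and that of *EGLN1*, whose fold change was close to 0, was not.

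**Figure D5:**
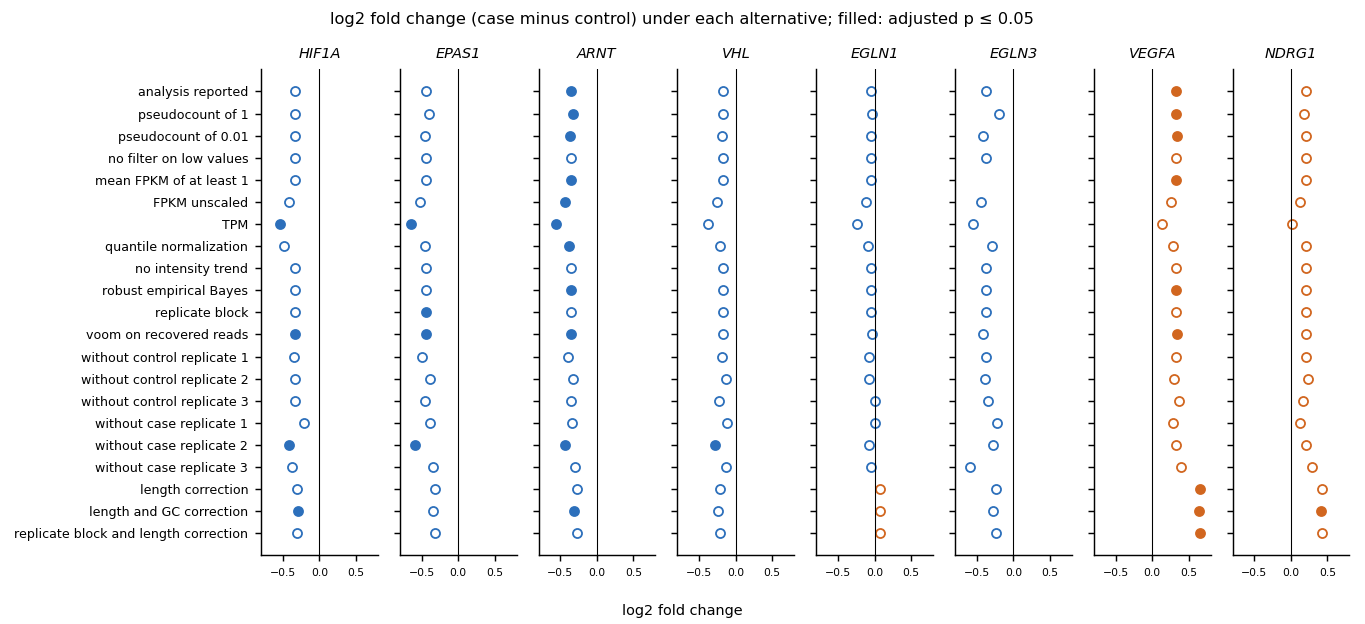
Log2 fold change of the 8 tested pathway genes (columns, case against control) under the analysis reported and each alternative (rows). Filled points passed an adjusted p of 0.05, and blue and orange mark values below and above 0: *VEGFA* is filled in the analysis reported and in no setting that leaves out a library, and *HIF1A* and *EPAS1* are filled in TPM, by voom, without case replicate 2 and in 1 further setting each.

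The genes whose pattern over the 6 libraries was most like that of *ARNT*, the pathway gene with the smallest P-value, were *DDX6* (Pearson r 0.9981), *TCF7L2* (0.9976) and *QKI* (0.9975), which encode an RNA helicase, a transcription factor of Wnt signaling and an RNA-binding protein. Their log2 fold changes were -0.50, -0.32 and -0.31, and *DDX6* was a DE gene (adjusted p = 0.0316 by limma) while *TCF7L2* (0.104) and *QKI* (0.0797) were not. These correlations are a description over 6 libraries that include the difference between the groups.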

How the data were processed

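RNA of 3 control and 3 case replicates of HK-2 cells was sequenced. The values deposited by the authors are FPKM of 29483 genes, made from quality-filtered reads that were aligned to GRCh38.p13 with HISAT2 2.1.0, counted on genes with HTSeq 0.6.0, and divided by gene length and library depth. The annotation release, the selection of RNA and the use of strand are not given in the sources used here. Symbols and positions came from GENCODE 44 (29063 genes matched), and promoter sequences from RefSeq.

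The 10 genes and all gene lists were chosen with earlier results of these data known. Each library was divided by its median-of-ratios factor (0.9437 to 1.036), and log2 was taken after adding 0.1, so that a fold change of a low gene is understated. The 13599 genes with a mean of at least 0.5 FPKM were tested in R 4.3.3 with limma 3.58.1, using the intensity trend without covariates. Adjusted p follows Benjamini and Hochberg over all tested genes. FPKM are printed as deposited, and separation between groups was judged on scaled values. The procedure was tested on simulated data.

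Whole reads were recovered from the steps between FPKM values for 85.5% of the 27922 genes above 0 (tolerance 0.02 reads), which gave the depth and allowed voom on 13405 genes as an alternative. Named genes are the 10 members, all listed HIF subunits, hydroxylases, ligase subunits and antisense RNAs, the DE genes among coregulators, targets and glycolytic targets, and the 3 genes most correlated with the member of smallest P-value. *PKM*, *EP300*, *CREBBP*, *DDIT4*, *ARHGEF39* and the cell type markers *KRT8*, *KRT18*, *KRT19*, *EPCAM* and *CDH1* were named outside this rule, and all but *CREBBP* after their values were seen. *HIF1A-AS2*, *EGLN3-AS1* and *VHL-AS1* were not analysed here, and the values of 1 tubule marker are not reported here. Alternatives tried were other pseudocounts (1 and 0.01), other filters (none, or a mean of at least 1 FPKM), other scalings (none, TPM, or quantile normalization), limma without the trend, with robust estimation or with a replicate block, voom, and leaving out each library. Corrections for gene length and GC content were added after the data had been seen. No set test was run.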

Additional observations from a re-analysis of the deposited data

How the results depend on the processing

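Of 535 values of 27 named genes under the alternatives, 429 kept their direction and their side of the threshold, 81 lost the call, 13 gained it, and 12 changed sign. These 27 were the tested genes named by the rule above, except *DDX6*, *TCF7L2* and *QKI*, whose values under the alternatives are not reported here. The changes of sign concerned genes that were not DE genes. *EGLN1* was at 0.08 with the length correction, with the length and GC correction, and with the replicate block and length correction together, and *HIF1AN* was at 0.18, 0.14 and 0.18. *P4HTM* was at -0.10 in TPM. With a library left out, *EGLN1* ranged from -0.08 to 0.00, *CUL2* from -0.27 to 0.00, *RBX1* from -0.12 to 0.01, *HIF1A-AS1* from -0.80 to 0.05, and *P4HTM* from -0.02 to 0.24. *HIF1A-AS3* kept its sign in these fits but ranged from 0.07 to 0.50.

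Upregulated and downregulated DE genes among all tested genes numbered 998 and 794 in the analysis reported, 329 and 191 with no filter on low values, 436 and 416 without the intensity trend, 383 and 2387 in TPM, 1568 and 1230 with the length and GC correction, and 570 and 350 with the replicate block and length correction together. They numbered 662 and 1124 without scaling, and 1308 and 1513 by voom. With a library left out, they ranged from 55 to 1813 and from 14 to 1682, with fewer samples in each fit.

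Among the 10 pathway genes, the upregulated call was lost (0) with no filter, without scaling, in TPM, with quantile normalization, without the intensity trend, with the replicate block, and whenever a library was left out (0 to 0), and there were 2 with the length and GC correction. The downregulated count of 1 became 0 with no filter, without the intensity trend, with the length correction, and with the replicate block and length correction together, 2 with the length and GC correction, and 3 in TPM and by voom, and ranged from 0 to 4 with a library left out. The 8 upregulated targets became 5 with no filter, without scaling and without the intensity trend, 4 in TPM, 14 with the length and GC correction, and 2 to 7 with a library left out. The 1 downregulated target became 2 in TPM and with the length and GC correction, and 0 to 1 with a library left out. The cause of these shifts was not tested.

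Same-numbered control and case libraries deviated from their group means with correlations of 0.063, 0.1 and -0.053. Not every library correlated best with its own number. The labels do not say whether same-numbered libraries shared a culture or batch, and correlations over 3 libraries a group cannot decide it. The replicate block gave 848 upregulated and 762 downregulated DE genes, and adjusted p by limma of 0.0387 for *ELOB*, 0.0406 for *EPAS1*, 0.0512 for *ARNT*, 0.0555 for *PFKFB4*, 0.0591 for *EDN1* and 0.0712 for *VEGFA*. Read counts were low for *EGLN3* (74 to 147 reads) and *ADM* (10 to 35 reads), and *CA9* was at or near 0. The part of depth in the spread of these genes was not tested. With 3 libraries a group, the median SD of a gene in log2 was 0.0886 among control and 0.189 among case libraries.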
